A study of Mus musculus with 6 samples.

Results

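The 39 genes of the 4 mouse Hox clusters were picked from a table of read counts for 27179 genes by their symbols, HoxA to HoxD followed by a paralogue number, and their RNA was compared between C2C12 myotubes and C2C12 myoblasts. HoxA contributed 11 genes, HoxB 10, HoxC 9 and HoxD 9. All 39 were found in the gene annotation of the same genome. On GRCm38 the HoxA genes described below lie on chromosome 6 between 52162417 and 52260880 on the minus strand, and the HoxB genes on chromosome 11 from 96194316 to 96368254 on the plus strand. The HoxC genes lie on chromosome 15 from 102921131 to 103036856 and the HoxD genes on chromosome 2 from 74668225 to 74765142, both on the plus strand. Counts cover their annotated exons.

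C2C12 is a line of mouse myoblasts that divide in serum-rich medium and, once serum is lowered, fuse into multinucleated myotubes. The 3 myotube libraries came from cells left at 100% confluence for 3 days and then given differentiation medium with 2% horse serum and an insulin, transferrin, selenium and ethanolamine supplement for 5 days. The 3 myoblast libraries were from subconfluent cells in growth medium with 10% fetal bovine serum. Both media were high-glucose DMEM with 4 mM glutamine. Serum, supplement, density and differentiation therefore changed together and cannot be told apart. The line carries no transgene named in the labels, and all libraries come from this 1 line.

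Hox genes encode homeodomain transcription factors that give cells their position along the head-to-tail axis and along the limb. They stand in clusters in the order in which they are used along the body, with low paralogue numbers anterior and high numbers posterior, and genes with the same number in different clusters are related copies called paralogues. Cells taken from an adult tissue often keep the combination they were born with, and this combination is called the Hox code. Hox proteins bind DNA together with TALE homeodomain partners (Pbx, Meis and Pknox), and Polycomb and Trithorax complexes hold Hox genes off or on.

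Library totals were 7370169, 7795853 and 8339589 counts in myotubes and 10597186, 11723881 and 10076945 counts in myoblasts. The Hox genes together held 1556, 1572 and 1729 of these in myotubes and 3165, 3228 and 2818 in myoblasts, so the totals behind single members are small. The labels were checked against marker genes. The 6 myotube markers, among them Myog and Ckm, summed to 12044 to 12582 CPM (counts scaled to a common library size) in myotubes and 67.1 to 85.6 CPM in myoblasts, and all 6 rose. A gene is said to have risen or fallen, or to be called, where its adjusted p in edgeR was under 0.05. The 5 myoblast markers summed to 3296 to 3392 CPM in myotubes and 1902 to 1996 CPM in myoblasts, and thus do not set myoblasts apart. Desmin (Des) carried most of this sum and rose by 1.12 on the log2 scale, Pax7 was not called (log2 change 0.10, adjusted p = 0.140), and Myod1, Myf5 and Cdh15 fell by at most 0.16. The markers of adipocytes, endothelium and macrophages each summed to at most 0.378 CPM in any library, with Adipoq and Adgre1 at 0. The osteoblast markers summed to 38.4 to 41.8 CPM in myotubes and 80.3 to 84.3 CPM in myoblasts, nearly all from Runx2, with Ibsp at 0. The chondrocyte markers summed to 63.4 to 68.8 CPM in myotubes and 94.2 to 104 CPM in myoblasts, nearly all from Sox9. The neuron markers summed to 88.2 to 110 CPM in myotubes and 202 to 219 CPM in myoblasts, nearly all from Stmn2, with Snap25 at 0, and the smooth muscle markers to 178 to 219 CPM in myotubes and 141 to 149 CPM in myoblasts, mostly from Smtn. These sums differ between the states, and their part in the Hox differences was not tested. Whether the 3 samples of a state were separate cultures is not stated, so each p-value here weighs a difference against sample-to-sample spread that may be technical.

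The Hox RNA of these cells came almost entirely from HoxA and HoxC. Taking a mean of 1 CPM as expressed, 10 HoxA genes and 8 HoxC genes were expressed in myotubes, against 9 HoxA genes and 8 HoxC genes in myoblasts. Of HoxB, 1 gene was expressed in myotubes and 0 in myoblasts, and no HoxD gene had a count in any library. In all, 19 members were expressed in myotubes and 17 in myoblasts, 16 of them in both, and 19 in neither. Hoxa4, Hoxa13 and Hoxb4 passed this level only in myotubes and Hoxa6 only in myoblasts. The means of these 4 genes lay between 0.479 CPM, for Hoxa6 in myotubes, and 1.79 CPM, for Hoxa6 in myoblasts. The counts of 19 and 17 expressed members stayed within 1.5 times under each other cut tried. Paralogue group 12, whose Hoxc12 lay just under the level, had no expressed member in either state.

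**Figure D1:**
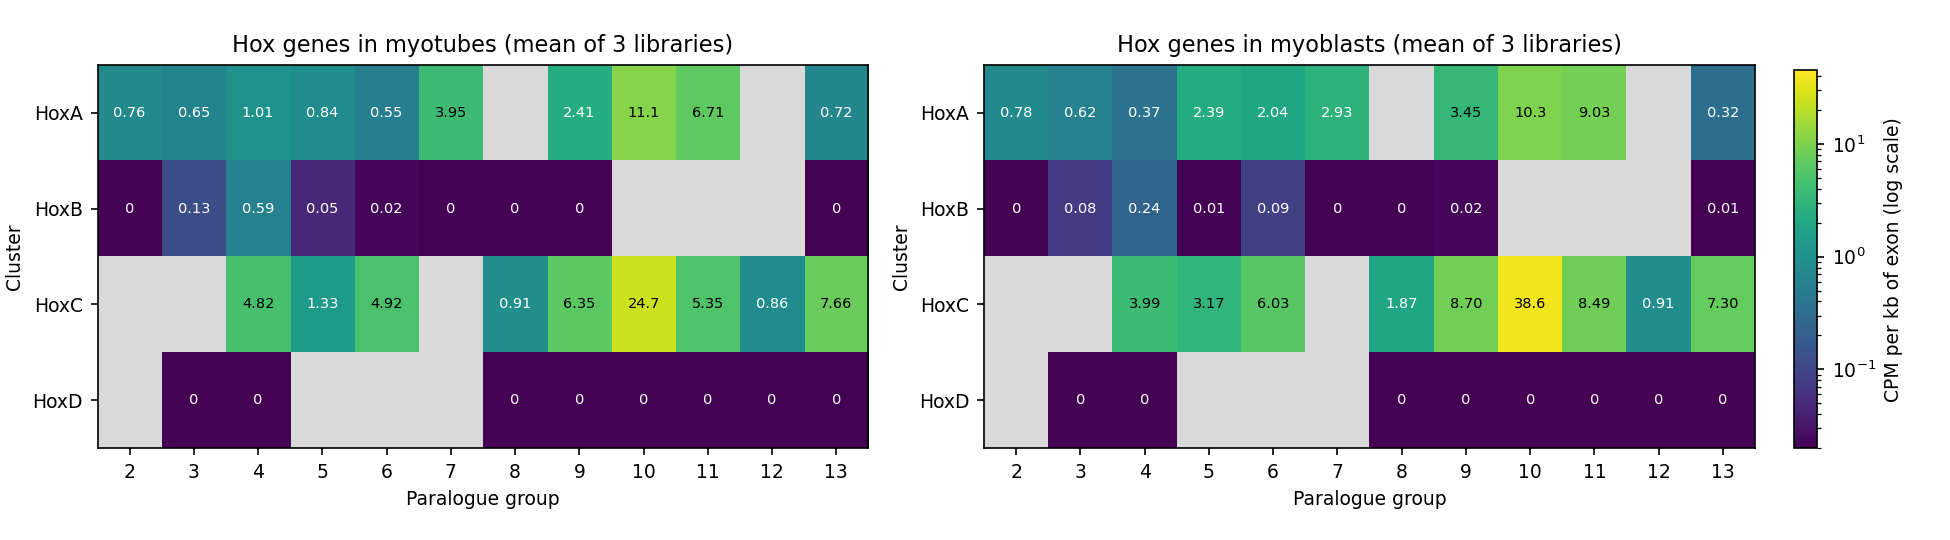
Mean level of the Hox genes of paralogue groups 2 to 13 in myotubes (left) and myoblasts (right), as CPM per kb of annotated exon on a log colour scale, with clusters as rows and paralogue groups as columns; grey squares have no gene. The HoxA and HoxC rows are filled in both panels and led by Hoxc10, at 24.7 CPM per kb in myotubes and 38.6 in myoblasts, while HoxB stays at or below 0.592 CPM per kb and HoxD is at 0.

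The 13 members at 0 counts in all 6 libraries were Hoxb1, Hoxb2, Hoxb7, Hoxb8 and the 9 HoxD genes. A count of 0 allows a level of up to 0.134 CPM over the myotube libraries and 0.0880 CPM over the myoblast libraries, taking 3 counts over each group as the limit and covering counting error only. Hoxd3 and Hoxd4 share 62.3% and 52.3% of their exon bases with other annotated genes on the same strand. How reads there were counted is not known. The genes on either side of HoxD were not silent. Lnpk had 89.6 ± 6.84 CPM in myotubes and 66.3 ± 0.463 CPM in myoblasts (SD, n = 3 each), Mtx2 had 56.1 and 42.1 CPM, and the homeobox gene Evx2, which adjoins the posterior end of the cluster, was at 0 in all libraries. The 0 counts were thus found for the HoxD genes and Evx2, and not for their next neighbours.

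The promoter sequences below put the most expressed HoxA gene, Hoxa10, beside its paralogue Hoxd10, which had 0 counts, and beside Hoxa6 and Hoxb4, the genes with the lowest and the highest log2 change among those called. Hoxd10 was chosen after its values were seen. Each run holds 250 bases before and 50 after a start site, from RefSeq on GRCm38.p6, 5′ to 3′ on the gene's own strand, with CG dinucleotides in capitals. Hoxa10 has 2 annotated starts, at chr6:52240805-52241104 and chr6:52234890-52235189, and Hoxa6 lies at chr6:52208623-52208922, all on the minus strand. Hoxb4 lies at chr11:96318017-96318316 and Hoxd10 at chr2:74691641-74691940, both on the plus strand.
Hoxa10, first start: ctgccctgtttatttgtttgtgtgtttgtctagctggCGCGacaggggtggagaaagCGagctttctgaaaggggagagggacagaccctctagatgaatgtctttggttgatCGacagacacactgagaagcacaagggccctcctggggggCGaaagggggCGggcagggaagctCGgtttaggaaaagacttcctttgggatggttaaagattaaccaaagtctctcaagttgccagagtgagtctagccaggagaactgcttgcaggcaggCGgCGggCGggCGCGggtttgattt
Hoxa10, other start: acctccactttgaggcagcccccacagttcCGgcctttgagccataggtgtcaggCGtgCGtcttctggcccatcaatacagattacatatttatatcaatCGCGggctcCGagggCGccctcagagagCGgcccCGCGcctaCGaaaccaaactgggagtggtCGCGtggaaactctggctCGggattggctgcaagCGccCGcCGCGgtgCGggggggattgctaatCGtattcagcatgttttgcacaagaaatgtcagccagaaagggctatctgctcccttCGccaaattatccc
Hoxa6: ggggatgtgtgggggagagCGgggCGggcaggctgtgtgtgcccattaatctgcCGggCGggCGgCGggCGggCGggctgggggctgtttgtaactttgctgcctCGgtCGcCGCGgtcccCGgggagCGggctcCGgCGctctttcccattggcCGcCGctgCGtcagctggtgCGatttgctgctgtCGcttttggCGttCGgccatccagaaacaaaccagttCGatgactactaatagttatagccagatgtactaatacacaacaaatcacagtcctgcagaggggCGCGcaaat
Hoxb4: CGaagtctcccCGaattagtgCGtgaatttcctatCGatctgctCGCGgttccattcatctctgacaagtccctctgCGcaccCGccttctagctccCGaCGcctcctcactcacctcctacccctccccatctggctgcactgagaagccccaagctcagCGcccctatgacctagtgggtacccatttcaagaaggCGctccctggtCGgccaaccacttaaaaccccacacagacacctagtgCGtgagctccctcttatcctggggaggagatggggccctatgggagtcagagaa
Hoxd10: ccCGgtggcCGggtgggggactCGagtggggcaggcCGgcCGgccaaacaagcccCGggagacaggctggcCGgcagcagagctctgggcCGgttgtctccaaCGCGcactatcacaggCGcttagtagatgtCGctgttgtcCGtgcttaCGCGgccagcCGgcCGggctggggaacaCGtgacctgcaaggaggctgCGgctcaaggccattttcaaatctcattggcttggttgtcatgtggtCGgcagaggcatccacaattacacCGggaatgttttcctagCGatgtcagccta

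These windows hold 12 and 21 CG dinucleotides for Hoxa10, 26 for Hoxa6, 14 for Hoxb4 and 22 for Hoxd10, against a median of 7 over 32851 promoters of the same length. The count of the silent Hoxd10 was close to that of 1 of the Hoxa10 starts and above that of the other, and which start these cells use was not measured. Over the 24 windows found for 22 Hox members the median was 14.5, with 17.5 for the 10 HoxA windows and 20 for the 10 HoxD windows. HoxB had 3 windows and HoxC only 1, that of Hoxc4, and none was found for Hoxc10. The shares over Hox windows given next therefore describe mainly HoxA and HoxD. The E-box CAGCTG, the kind of site that myogenic helix-loop-helix factors bind and the same on both strands, stood in 16.7% of the Hox windows and in 16.3% of all promoters. Its 4 Hox windows were those of Hoxa3, Hoxa5, Hoxa6 and Hoxa11. The core TGATNNAT, read on both strands and resembling the joint site of Pbx and Hox proteins, stood in 16.7% of Hox windows and 8.85% of all promoters. CCAAT, also on both strands, stood in 62.5% and 37.4%. A match is a description of the letters only.

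The HoxA genes are taken from anterior to posterior. The means of Hoxa2 and Hoxa3 differed by less than the spread of their libraries. Hoxa2, which sets the identity of a branchial arch, had 1.71, 1.35 and 1.01 CPM in myotubes and 0.987, 1.54 and 1.60 CPM in myoblasts. Hoxa3, needed for pharyngeal organs such as the thymus, had 4.13, 4.19 and 3.41 CPM in myotubes and 3.50, 4.30 and 3.39 CPM in myoblasts. The groups overlapped for both genes, and neither was called (edgeR quasi-likelihood F test, Benjamini-Hochberg adjustment over all 12800 genes tested). The log2 changes of myotubes over myoblasts were −0.04 for Hoxa2 (95% interval −0.74 to 0.67, adjusted p = 0.925) and 0.05 for Hoxa3 (−0.37 to 0.48, adjusted p = 0.814). Their signs turned when a library was left out, and the interval for Hoxa2 still allows a 1.59-fold rise.

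Hoxa4, Hoxa5, Hoxa6 and Hoxa7, which pattern the neck and the chest, moved apart. Hoxa4 had 15, 7 and 14 counts in myotubes and 6, 5 and 9 in myoblasts, too few for the filter. The groups overlapped only at the edge, between the lowest myotube and the highest myoblast library, and in CPM they did not overlap. Fitted with no filter, its log2 change was 1.39 (adjusted p = 0.00265). The other untested members with counts, Hoxb3, Hoxb5, Hoxb6, Hoxb9, Hoxb13 and Hoxc12, were not called in that fit (edgeR adjusted p 0.295 to 0.788). Hoxa5, which also guides lung development, had 1.85, 1.89 and 1.01 CPM in myotubes and 5.21, 3.57 and 4.71 CPM in myoblasts. Every myotube library lay under every myoblast library, and Hoxa5 fell by 1.503 on the log2 scale (SE 0.27, 95% interval −2.06 to −0.95, adjusted p = 1.65e-05), to 35.3% of its myoblast level. Hoxa6 had 0.428, 0 and 1.01 CPM in myotubes, from 3, 0 and 8 counts, and 1.97, 1.79 and 1.60 CPM in myoblasts, from 22, 22 and 17 counts. It also fell, with a log2 change of −1.83 (adjusted p = 0.00117), but passed the filter through the myoblast libraries alone. Its size rests on few counts, with −1.27 without myotube library 2 and −3.03 without myotube library 3.

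Hoxa7 rose where its cluster neighbours Hoxa5 and Hoxa6 fell. It had 9.41, 12.98 and 11.73 CPM in myotubes and 8.71, 8.85 and 7.72 CPM in myoblasts. The groups did not overlap, though the lowest myotube library lay close to the myoblast ones, and the log2 change was 0.43 (SE 0.14, 95% interval 0.15 to 0.72, adjusted p = 0.00623). Hoxa7 was no longer called under scaling by total counts (adjusted p = 0.0595) or without myotube library 2 (adjusted p = 0.0581), the adjusted p ranging from 0.00106 to 0.0595 over 14 alternatives. An antisense transcript, Hoxaas3, covers 20.4% of its exon bases; it had 0.762 CPM in myotubes and 0.825 CPM in myoblasts.

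Of the posterior HoxA genes, Hoxa9 and Hoxa11 fell by about the same amount while Hoxa10 between them was not called. Hoxa9, a regulator of blood stem cells and of muscle stem cells, had 13.3, 14.2 and 12.9 CPM in myotubes and 19.8, 18.7 and 19.2 CPM in myoblasts. The libraries of each group lay close together and the groups did not overlap. The log2 change was −0.52 (SE 0.10, 95% interval −0.73 to −0.31, adjusted p = 6.47e-05). Hoxa10, a gene of the lumbar region, the thigh and the uterus, had 38.6, 31.5 and 38.5 CPM in myotubes and 32.8, 33.1 and 34.8 CPM in myoblasts. The groups overlapped because of myotube library 2. Its log2 change was 0.11 (SE 0.08, 95% interval −0.05 to 0.27, adjusted p = 0.205), −0.04 under scaling by total counts, and 0.20 and called without myotube library 2 (adjusted p = 0.0272, range over 14 alternatives 0.0272 to 0.687).

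Hoxa11, which patterns the forearm and the shin, had 15.96, 14.46 and 15.64 CPM in myotubes and 21.09, 20.63 and 20.23 CPM in myoblasts. It fell by 0.43 on the log2 scale without overlap of the groups (SE 0.10, 95% interval −0.63 to −0.23, adjusted p = 0.000324). Its antisense partner Hoxa11os covers 35.0% of its exon bases and had 17.8 ± 1.42 CPM in myotubes and 24.9 ± 0.523 CPM in myoblasts (SD, n = 3 each), a log2 change of −0.49 (adjusted p = 3.73e-05). Which strand was counted was not given in the sources used here. Reads from the exon bases that this pair shares therefore cannot be told apart. Hoxa13, the hand and foot gene, had 1.28, 2.03 and 2.02 CPM in myotubes and 1.26, 0.650 and 0.471 CPM in myoblasts. Its counts were 9, 15 and 16 in myotubes and 14, 8 and 5 in myoblasts. In CPM, myotube library 1 lay barely above myoblast library 1, so the groups did not overlap but nearly touched. Hoxa13 rose by 1.16 on the log2 scale (adjusted p = 0.00716), but it reached the filter level in 3 myotube libraries and in only 1 myoblast library.

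**Figure D2:**
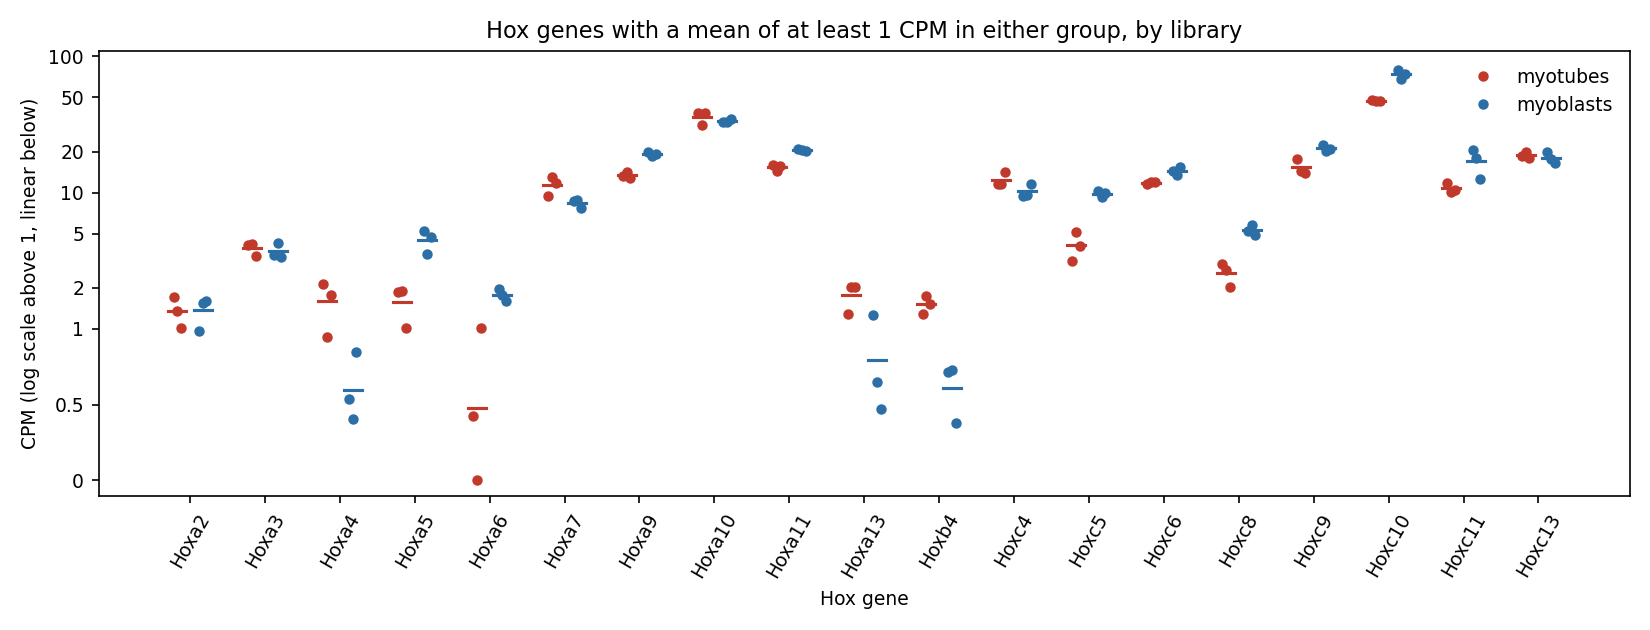
CPM of Hox genes that averaged 1 CPM or more in either group, with 1 point per library (myotubes left in red, myoblasts right in blue) and a line at the group mean; the axis is logarithmic above 1 and linear below. Among the tested genes the groups do not overlap for 10 downward, such as Hoxa5, Hoxc5 and Hoxc8, and 3 upward, Hoxa7, Hoxa13 and Hoxb4. Over all genes tested 80.5% had no overlap, 40.6% upward and 39.9% downward. The groups of Hoxa13 nearly touch, and Hoxb4 passed the filter through the myotube libraries alone.

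HoxC gave the larger part of the Hox RNA, and no HoxC gene rose. Hoxc4 had 11.5, 11.5 and 14.1 CPM in myotubes and 9.51, 9.66 and 11.6 CPM in myoblasts, so that its groups overlapped. Its log2 change was 0.28 (SE 0.13, 95% interval 0.01 to 0.55, adjusted p = 0.0504), at the edge of the threshold, and 5 of 14 alternatives called it, with adjusted p from 0.0215 to 0.341. The next genes, Hoxc5 and Hoxc6, are neighbours that act in the neck, shoulder and chest region. Hoxc5 had 3.14, 5.14 and 4.04 CPM in myotubes and 10.2, 9.26 and 9.88 CPM in myoblasts. Every myoblast library had more than every myotube library by a wide gap, and Hoxc5 fell by 1.24 on the log2 scale (SE 0.17, 95% interval −1.59 to −0.90, adjusted p = 2.95e-07). Its annotation shares 166 exon bases with that of Hoxc10 on the same strand, 5.37% of its exon bases. Hoxc6 had 11.54, 12.03 and 11.98 CPM in myotubes and 14.54, 13.48 and 15.53 CPM in myoblasts. The groups did not overlap, and the log2 change was small, −0.29 (SE 0.11, 95% interval −0.52 to −0.05, adjusted p = 0.0244). This call was lost in the DESeq2 Wald test (adjusted p = 0.0966), without myotube library 1 (0.0629) and without myoblast library 3 (0.0855), the range over 14 alternatives being 0.00127 to 0.0966.

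Hoxc8 and Hoxc9, which set motor neuron and rib identity at the level of the forelimb and chest, both fell. Hoxc8 had 2.99, 2.70 and 2.02 CPM in myotubes and 5.21, 5.77 and 4.89 CPM in myoblasts, a log2 change of −1.05 (adjusted p = 8.52e-05). Hoxc9 had 17.81, 14.46 and 14.003 CPM in myotubes and 22.44, 20.06 and 20.89 CPM in myoblasts, a log2 change of −0.46 (SE 0.11, 95% interval −0.68 to −0.24, adjusted p = 0.000371). Neither gene had overlapping groups.

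Hoxc10, a gene of the lumbar level and the hindlimb, was the most abundant Hox RNA in both states. It had 47.7, 46.8 and 46.8 CPM in myotubes and 79.0, 68.5 and 73.7 CPM in myoblasts. The myotube libraries were nearly identical, and Hoxc10 fell by 0.64 on the log2 scale (SE 0.06, 95% interval −0.78 to −0.51, adjusted p = 1.10e-09), to 64.0% of its myoblast level. Hoxc11, also active in the hindlimb, had 11.8, 10.1 and 10.5 CPM in myotubes and 20.7, 18.1 and 12.6 CPM in myoblasts. Myoblast library 3 lay just above the myotube libraries, and the log2 change was −0.67 (SE 0.15, 95% interval −0.99 to −0.35, adjusted p = 0.000420). Hoxc12 was too low to test, with 5, 6 and 9 counts in myotubes and 13, 17 and 3 in myoblasts. Hoxc13, known for its part in hair keratin expression, had 18.53, 20.005 and 18.04 CPM in myotubes and 19.84, 17.70 and 16.37 CPM in myoblasts. Its groups overlapped, with a log2 change of 0.07 (SE 0.10, 95% interval −0.14 to 0.28, adjusted p = 0.546) that was −0.08 under scaling by total counts.

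Among the HoxB genes only Hoxb4 was tested. It is known for expanding blood stem cells when supplied to them. It had 1.28, 1.76 and 1.51 CPM in myotubes, from 9, 13 and 12 counts, and 0.718, 0.731 and 0.376 CPM in myoblasts, from 8, 9 and 4 counts. The groups did not overlap in CPM, and Hoxb4 rose by 1.29 on the log2 scale (adjusted p = 0.00389); it passed the filter through the myotube libraries alone. The other HoxB genes with counts were Hoxb3, at 3, 5 and 4 counts in myotubes and 3, 3 and 5 in myoblasts, and Hoxb5, Hoxb6, Hoxb9 and Hoxb13, with at most 4 counts in any library. An antisense transcript covers 52.9% of the exon bases of Hoxb3.

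In total 13 of the 19 Hox genes tested were called, 3 higher and 10 lower in myotubes, where 79.5% of all 12800 genes tested were called, 40.2% higher and 39.2% lower. A call as such therefore says little about a Hox gene, since most genes differed between these states. Hoxa2, Hoxa3, Hoxa10, Hoxc4 and Hoxc13 were among those not called. The groups did not overlap for 3 Hox genes upward and 10 downward, where 80.5% of all genes tested had no overlap, 40.6% upward and 39.9% downward. The log2 change was past 1 in size for 6 Hox genes, Hoxa5, Hoxa6, Hoxa13, Hoxb4, Hoxc5 and Hoxc8. Against a 2-fold change, 0 Hox genes passed the edgeR test that called 21.6% of all genes, and 3 had an unadjusted p under 0.05 (Hoxa5, Hoxa6 and Hoxc5). DESeq2 and limma-voom also gave 0, but total counts gave 3, no filter 2, thinning 1, and leaving out a library 0 to 2. The 2 arose without myotube library 2, and 1 arose without myotube library 1 or 3 or myoblast library 2. Over the Hox genes tested the log2 change ran from −1.83 for Hoxa6 to 1.29 for Hoxb4. These ends rest on few counts, since Hoxa6 passed the filter through myoblasts alone and Hoxb4 through myotubes alone. The median log2 change was −0.29 over the Hox genes tested, beside 0.02 over all genes tested. With library totals as the scaling, without TMM (trimmed mean of M-values), these medians were −0.43 and −0.13. Since the RNA is from whole cultures, fewer cells expressing a gene and less RNA per cell cannot be told apart.

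**Figure D3:**
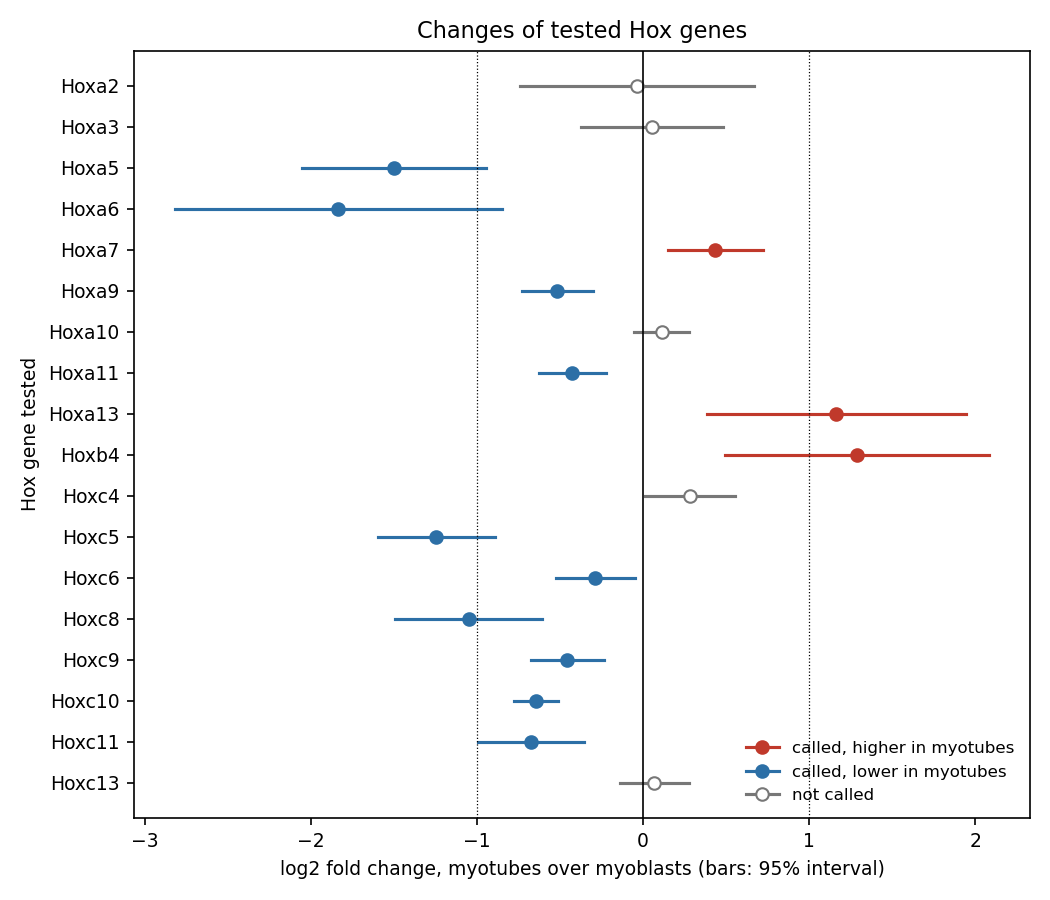
Log2 fold change of myotubes over myoblasts for tested Hox genes, in cluster and paralogue order, with 95% intervals; filled points were called by edgeR (red higher, blue lower) and dotted lines mark a 2-fold change. The lowest point is Hoxa6 at −1.83 and the highest Hoxb4 at 1.29, and every called HoxC gene lies left of 0. Hoxa6 passed the filter through the myoblast libraries alone and Hoxb4 through the myotube libraries alone, so both rest on few counts.

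By position along the body axis, Hoxa2 and Hoxa3 at the anterior end had no call. Of the 8 central genes tested (groups 4 to 8) 2 were higher and 5 lower, with a median log2 change of −0.67. Of the 8 posterior genes (groups 9 to 13) 1 was higher and 5 lower, with a median of −0.44. Over all genes tested 79.5% were called, 40.2% higher and 39.2% lower. These small counts therefore say little about position, and a difference by position was not tested. Both tested members of groups 5, 6, 9 and 11 fell, whereas groups 4, 10 and 13 had 1 member called and the other not. None of these groups had members called in opposite directions.

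Genes were ranked by level per kb of exon. Hoxc10 led with 24.7 ± 0.290 CPM per kb in myotubes and 38.6 ± 2.76 in myoblasts (SD, n = 3 each). Hoxa10 came next, with 11.1 ± 1.25 in myotubes and 10.3 ± 0.335 in myoblasts. The following places went to Hoxc13, Hoxa11 and Hoxc9 in myotubes, with 7.66 ± 0.416, 6.71 ± 0.345 and 6.35 ± 0.856, and to Hoxa11, Hoxc9 and Hoxc11 in myoblasts, with 9.03 ± 0.189, 8.70 ± 0.497 and 8.49 ± 2.05. Hoxa11 and Hoxc9 in myotubes, and Hoxa11, Hoxc9 and Hoxc11 in myoblasts, lay within their spread of each other. Below Hoxa10 the order depends on the length used: per kb of the longest transcript Hoxc10 and Hoxa10 again led in both groups, but Hoxc6 had 7.497 in myotubes and 9.18 in myoblasts and took place 4 in myotubes and place 3 in myoblasts. Of the 5 highest genes 4 were shared between the groups, and of the 10 highest 9 were. Across the 20 genes expressed in either group the levels had a Spearman correlation of 0.91, and across the 26 with counts 0.94; these points are genes measured in the same libraries and share exon length.

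The share of each cluster in the summed Hox level per kb moved a little. HoxC made up 64.5 ± 1.33% in myotubes and 69.7 ± 0.882% in myoblasts, HoxA 34.6 ± 1.46% in myotubes and 29.9 ± 0.889% in myoblasts, and HoxB 0.896% in myotubes and 0.393% in myoblasts. The library shares of HoxC ran from 63.5 to 66.0% in myotubes and from 69.0 to 70.7% in myoblasts, without overlap. Posterior genes held 74.6 ± 0.828% of the level in myotubes and 76.8 ± 1.05% in myoblasts. The summed Hox level was 217 ± 4.67 CPM in myotubes and 270 ± 11.9 CPM in myoblasts, a ratio of 0.804, and without Hoxc10 it was 170 CPM in myotubes and 197 CPM in myoblasts. No test was made on these sums.

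Paralogues of HoxA and HoxC in the same library give a ratio that scaling does not touch, and 7 such pairs had counts. The ratio of Hoxa10 to Hoxc10 per kb was 0.472, 0.393 and 0.480 in myotubes and 0.242, 0.283 and 0.276 in myoblasts. The balance of this leading pair thus favoured Hoxc10 in every library, but less so in every myotube library. Hoxa4 to Hoxc4 had 0.211 ± 0.0832 in myotubes and 0.0923 ± 0.0251 in myoblasts, and Hoxa13 to Hoxc13 had 0.0937 ± 0.0221 in myotubes and 0.0427 ± 0.0180 in myoblasts. Hoxa6 to Hoxc6 went the other way, at 0.111 ± 0.116 in myotubes and 0.341 ± 0.0497 in myoblasts (SD, n = 3 each). These 4 of 7 pairs had no overlap between groups, 3 upward and 1 downward, where 80.5% of single genes had none, and each gave p = 0.1 in the exact two-sided permutation test, the smallest that 3 against 3 libraries allow, with an adjusted value of 0.175 over the 7 pairs. The groups overlapped for Hoxa5 to Hoxc5, Hoxa9 to Hoxc9 and Hoxa11 to Hoxc11 (exact permutation p = 0.6, 0.9 and 0.4).

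**Figure D4:**
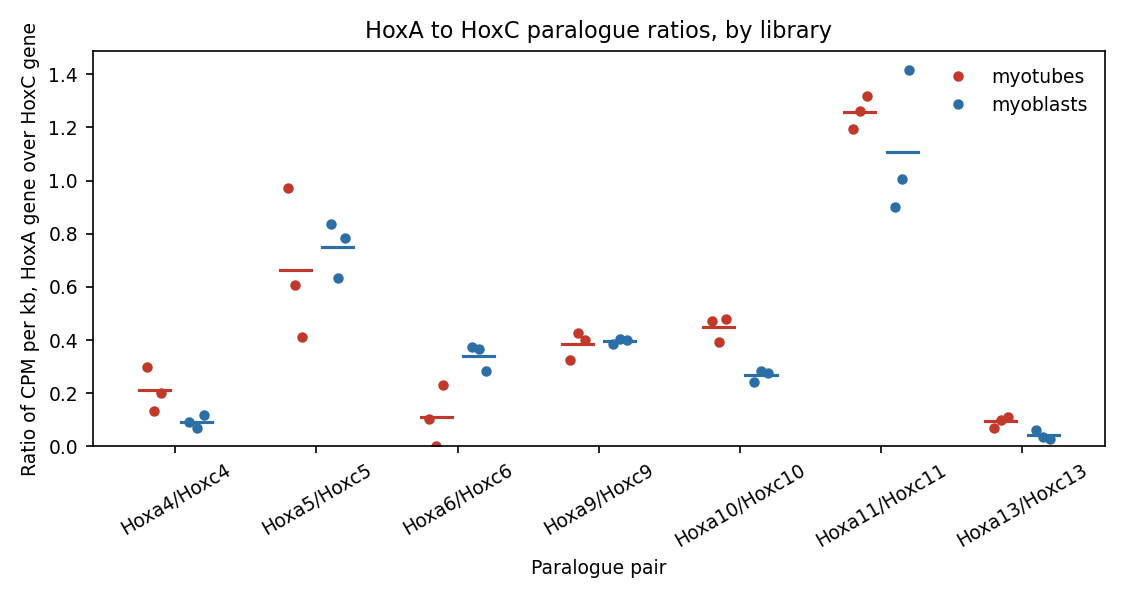
Ratio of each HoxA gene to its HoxC paralogue in CPM per kb, by library (myotubes left in red, myoblasts right in blue), with lines at the group means. Hoxa10 over Hoxc10 lies between 0.393 and 0.480 in myotubes and between 0.242 and 0.283 in myoblasts, and Hoxa11 over Hoxc11 is the only pair with means above 1.

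The clusters also hold noncoding genes. The microRNAs miR-10 and miR-196 lie between Hox genes, and miR-196 is known to act on Hox messages such as that of Hoxb8. Their mature sequences, from RefSeq on GRCm38.p6 with the seed (bases 2 to 8) in capitals, fall into a pair of shared seeds.
miR-10a-5p: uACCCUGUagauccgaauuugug
miR-10b-5p: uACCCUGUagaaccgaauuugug
miR-196a-5p: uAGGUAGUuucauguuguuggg
miR-196b-5p: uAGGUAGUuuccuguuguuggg

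The first pair comes from genes on chromosomes 11 and 2, in HoxB and HoxD, and miR-196a from genes on chromosomes 11 and 15, in HoxB and HoxC. Their gene rows held 0 counts in all libraries. Mir196b, on chromosome 6 within the exon annotation of Hoxa9, had 2, 0 and 6 counts in myotubes and 2, 2 and 1 in myoblasts. These rows count poly(A) fragments, and the mature microRNAs were not measured. Of 11 cluster noncoding genes in the table, 3 were tested. Hotair, a long noncoding RNA of HoxC that was first described as acting on HoxD, had 8.46 ± 2.52 CPM in myotubes and 7.97 ± 1.02 CPM in myoblasts and was not called (log2 change 0.08, adjusted p = 0.683). Mira, from HoxA, had 9.50 ± 1.38 CPM in myotubes and 8.51 ± 0.725 CPM in myoblasts and was not called either (log2 change 0.15, adjusted p = 0.323). Only Hoxa11os, given above, fell.

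Genes for the DNA-binding partners of Hox proteins were expressed in both states. Of 8 TALE genes tested 2 rose and 5 fell, with a median log2 change of −0.85; a share of calls near the 79.5% over all genes says nothing particular of this or the next lists. Meis2 had 33.0 ± 1.21 CPM in myotubes and 110 ± 7.47 CPM in myoblasts, a log2 change of −1.74 (adjusted p = 2.85e-18). Pknox2 had 29.7 ± 3.75 CPM in myotubes and 10.8 ± 0.513 CPM in myoblasts, a log2 change of 1.47 (adjusted p = 2.80e-12). Pbx3 was not called (log2 change −0.22, adjusted p = 0.0959). Of 8 other genes for proteins known to bind Hox proteins, 1 rose and 5 fell (median −0.44). The lowest was Gmnn, the replication inhibitor geminin, with a log2 change of −2.34, and the one that rose was Smad1, with 0.16; total counts gave 0 higher and 6 lower.

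Regulators that hold Hox genes off or on were called in both directions. Of 11 genes of Polycomb repressive complex 2, which places H3K27 methylation, 1 rose and 6 fell (median −0.16). The methyltransferase Ezh2 had 25.8 ± 0.341 CPM in myotubes and 85.7 ± 0.150 CPM in myoblasts, a log2 change of −1.73 (adjusted p = 1.51e-18), and its accessory factor Phf19 had the lowest change, −1.74. Ezh1, the related enzyme of non-dividing cells, rose by 0.72 on the log2 scale (adjusted p = 3.68e-11), to 93.6 ± 2.08 CPM in myotubes, against 56.8 ± 4.58 CPM in myoblasts. Of 18 genes of complex 1, 8 rose and 8 fell, with a median of −0.09, from −1.605 for Cbx2 to 0.63 for Pcgf1; under scaling by total counts 3 were higher and 10 lower. Of 14 Trithorax genes and H3K27 demethylases 2 rose and 9 fell, with a median of −0.34, from −0.99 for Psip1 to 0.47 for the demethylase Kdm6b; total counts gave 1 higher and 12 lower. Kmt2a, a mammalian counterpart of the fly Trithorax enzyme, fell by 0.95 on the log2 scale.

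Of the signals that first set up the Hox code, most caudal and axial inducers were low and retinoic acid receptors were expressed. Of 7 inducers, 6 averaged under 1 CPM in both states, while Gdf11 had 21.1 CPM in myotubes and 24.5 CPM in myoblasts. Cdx2, Cdx4 and T, inducers of posterior Hox genes in the embryo, were at 0 in all libraries, and of 7 genes in that list only Gdf11 was tested (log2 change −0.22, adjusted p = 0.0338). This call was lost in the DESeq2 Wald test, when thinned, and without myotube library 1 or 2 or myoblast library 1 or 2. Retinoic acid switches on anterior Hox genes, and of 11 genes of its pathway tested 4 rose and 4 fell (median 0.01). The receptor gene Rarg had 102 ± 6.46 CPM in myotubes and 228 ± 2.30 CPM in myoblasts. Crabp2, which carries retinoic acid to its receptor, rose by 1.36, and Stra6, a retinol uptake receptor, had a log2 change of −2.63, from 6, 6 and 6 counts in myotubes, so that it passed the filter through the myoblast libraries alone. Under scaling by total counts 2 genes of this list were higher and 6 lower. Of 18 tested genes flanking the clusters, 10 rose and 5 fell, with a median of 0.18, from −0.74 for Hnrnpa3 beside HoxD to 1.09 for Calcoco1 beside HoxC.

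**Figure D5:**
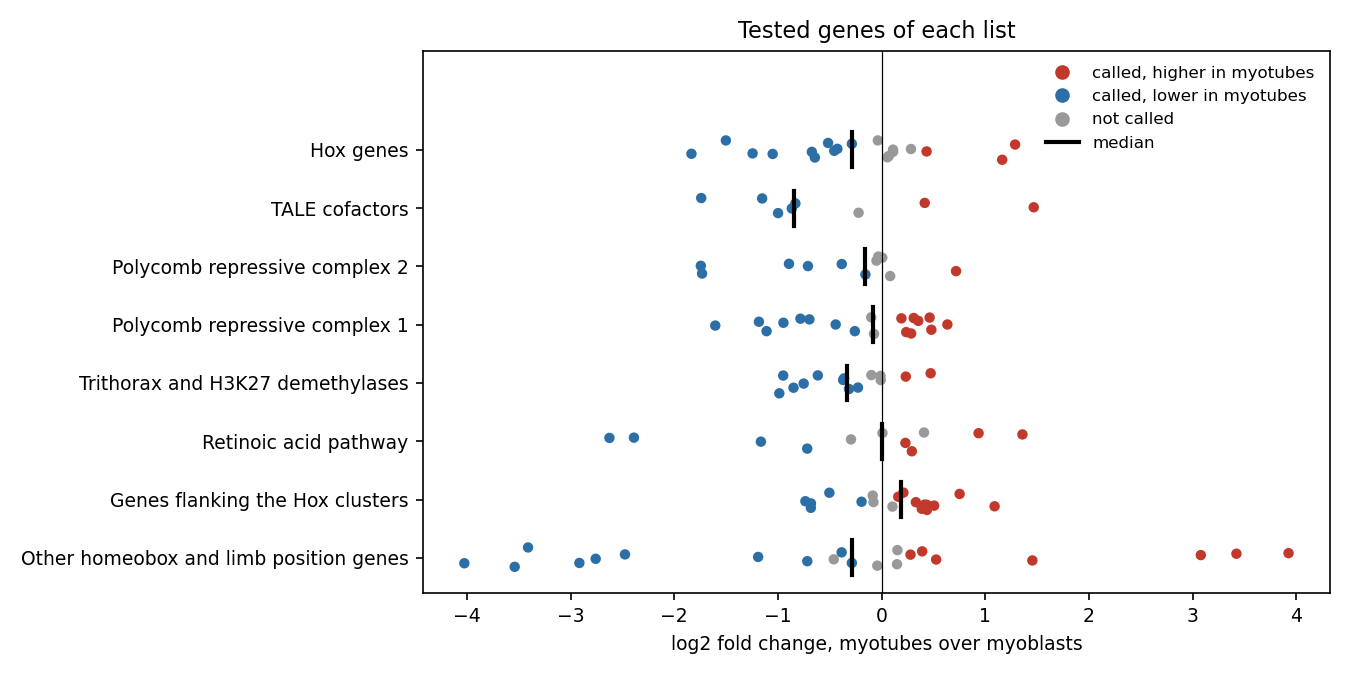
Log2 fold change of myotubes over myoblasts for the tested genes of the Hox clusters and of related lists; points are genes, red called higher, blue called lower and grey not called, and black bars are medians. The Hox median is −0.29, beside −0.85 for TALE cofactors and 0.18 for the flanking genes, with points on both sides of 0 in each list plotted.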

How the data were processed

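TRIzol RNA of 3 myotube and 3 myoblast samples of C2C12 was sequenced as stranded poly(A) libraries, per the labels' protocols. The authors deposited 1 table of raw counts per gene with a column for each library. It was made with STAR, fastp and featureCounts on mm10, the GRCm38 assembly, per the submitters' processing notes. Tool versions, the strand setting and the rule for reads with several matches were not given in the sources used here. Genes with an antisense partner are therefore uncertain, also Hoxa3 and Hoxa4, where antisense transcripts cover 25.4% and 16.0% of exon bases. Hoxa2 shares 15.0% of its exon bases with another gene on the same strand. All value columns were used (0 left out). Groups come from the sample titles.

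Genes were kept by filterByExpr (minimum count 10, minimum total 15), scaled by TMM (factors 0.949 to 0.952 in myotubes and 1.05 to 1.055 in myoblasts) and tested with edgeR 4.0.16's robust quasi-likelihood test in R 4.3.3, with Benjamini-Hochberg adjustment over 12800 genes and a threshold of 0.05; glmTreat tested against a 2-fold change. CPM values are TMM-scaled, and the biological coefficient of variation came to 3.56%. CPM per kb used the union of exons in GENCODE M21. Ratios of paralogues were compared with an exact permutation test (scipy 1.17.1). The test was checked on simulated counts in which few genes changed, evenly up and down. That check does not cover scaling where most genes differ. Replicates were not identical (chi-square per degree of freedom 1.37 to 3.37). The members and gene lists were chosen with earlier results of these data known. Members are named with their values, though some genes are not reported here. Those with a mean of 10 CPM or more in either group have full statistics, and other tested members a log2 change and adjusted p. In each list the called genes with the highest and lowest change are named, and any others named were picked for their role. Alternatives were DESeq2 1.42.0, limma-voom (limma 3.58.1), other scalings, filters and lengths, thinning, the replicate block and leaving out each library. Promoter and microRNA sequences come from RefSeq.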

Additional observations from a re-analysis of the deposited data

How the results depend on the processing

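Of 249 log2 changes of 18 tested Hox genes under alternatives, 229 kept their direction and side of the threshold, 5 lost the call, 6 gained one and 9 changed sign, each of the last among genes not called. Under scaling by total counts the values were −0.091 for Hoxa3, −0.036 for Hoxa10 and −0.078 for Hoxc13; thinning to 7370169 counts gave −0.080 for Hoxa3. Leaving out each library in turn gave −0.23 to 0.15 for Hoxa2 and −0.011 to 0.18 for Hoxa3. The number of Hox genes higher in myotubes was 1 when thinned, where Hoxa6, Hoxa13 and Hoxb4 fell under the filter, and 3 to 5 with a library left out, the 5 arising without myotube library 2 or myoblast library 3. Past a 2-fold change there were 3 under total counts (Hoxa5, Hoxa6 and Hoxc5), 2 with no filter, 1 when thinned and 0 to 2 with a library left out, with 1 without myotube library 1 or 3 or myoblast library 2, and 2 without myotube library 2; the cause was not tested. With the longest transcript as length the HoxA share was 38.0% in myotubes and 32.9% in myoblasts and the HoxC share 61.2% and 66.8%; with no division by length they were 41.9% and 36.4%, and 57.0% and 63.1%. Of 532 counts of calls in the other lists, 508 stayed within 1.5 times. Replicate numbers are not said to mark shared cultures, and the deviations of same-numbered libraries correlated by 0.010, 0.041 and 0.025, though each library correlated best with its own number. With replicate number as a block 4 Hox genes were higher and 10 lower, Hoxc4 being added (adjusted p = 0.0494). Members under about 1.09 CPM, the level the filter needs, were too shallow to test.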

Other observations

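Other homeobox and T-box genes that mark limb position or connective tissue were also measured. Of 21 tested, 7 rose and 10 fell, where 79.5% of all genes tested were called. Several of the calls in this list rest on few counts in myotubes or in myoblasts. The median log2 change was −0.29. The highest was Tbx4, a hindlimb gene, with 2.28, 2.43 and 3.78 CPM in myotubes and 0.180, 0.162 and 0.188 CPM in myoblasts (log2 change 3.92, adjusted p = 1.02e-08), although its myoblast value rests on 2 counts a library and it passed the filter through the myotube libraries alone. Tbx15, a T-box gene of limb and glycolytic muscle, had 325 ± 11.97 CPM in myotubes and 38.5 ± 3.50 CPM in myoblasts (log2 change 3.08, adjusted p = 3.20e-25). Tbx5, which marks the forelimb, and Pitx1, which marks the hindlimb, had 0 counts in all libraries. In the other direction, Dlx1 had the lowest change, −4.02, from 2, 1 and 2 counts in myotubes and 43, 43 and 45 in myoblasts, passing the filter through myoblasts alone, and Dlx3 had 6.07 ± 0.423 CPM in myotubes and 70.9 ± 5.11 CPM in myoblasts (log2 change −3.54, adjusted p = 6.04e-21). Prrx1 and Prrx2, limb mesenchyme genes, fell by 0.72 and 1.19. Tbx15, Tbx5, Pitx1, Dlx3, Prrx1 and Prrx2 were picked for their roles after their values were seen.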
